A study of Columba livia with 10 samples.

Results

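A set of 100 genes was read at far higher levels in 1 of 10 cerebellum libraries of racing homers than in the other 9. The library is control 4, by its sample record from a bird that rested in the loft, a grouping on which the labels conflict. The genes were chosen from 22547 by their counts per 1000000 gene counts (CPM): at least 5 CPM in control 4 and at least 8 times the highest CPM of the other 9 libraries. A total of 115 genes, 0.51% of all genes in the tables, met both thresholds, and 15 of them were set aside by name or family. Since control 4 itself chose the genes, its height over the other libraries is a description and carries no test.

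Racing homers are domestic pigeons bred for homing. In the race group were 5 birds, taken after a competition flight of 300 km. The control group held 5 rested birds of like age from the same loft, and all birds were fed for competition and trained by the widowhood method. Each library was made from the total RNA of 1 dissected cerebellum, and the labels give no genotype, sex or age in years. The labels conflict on the link between tables and birds: 9 of 10 tables carry another number than the title of their sample. By the titles 6 of 10 tables would change group: control 3, control 4 and control 5 would be race birds, and race 1, race 2 and race 3 would be rested birds. The grouping used is that of the sample record holding each table.

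The telencephalon, the front part of the forebrain, has a dorsal division, the pallium, and a ventral division, the subpallium. In birds the pallium holds the hyperpallium, mesopallium, nidopallium and arcopallium, and its projection neurons use glutamate. The subpallium holds the striatum and pallidum and gives rise to GABA neurons. In vertebrates the pallium is laid out with transcription factors such as TBR1, FEZF2 and EMX2, and the subpallium with DLX genes and, in the part that forms the pallidum, NKX2-1, LHX6 and LHX8. The cerebellum arises from the hindbrain and is laid out with factors such as ZIC genes, PAX6 and EN2, which are not confined to it.

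The depth was 17953704 to 23344086 gene counts per library, so that 3 counts correspond to 0.129 to 0.167 CPM, and a count of 0 allows a level of up to that. Control 4 held 18998451. Its median Spearman correlation with the other libraries over 13566 genes was 0.937, against 0.953 or more for 8 libraries and 0.865 for control 1. Control 3, control 4 and control 5 also differed from the rest in W-linked genes, with 93 to 95 of 195 at 1 CPM or more against 24 to 33 in the other 7. All race libraries were among these 7. W-linked reads are thus uneven between rested and flown birds in the fits with and without control 4. None of the 100 genes lies on the W chromosome and 4 lie on the Z chromosome, by the RefSeq annotation of bColLiv1.pat.W.v2. All 45 pairs of libraries differed by more than sampling noise.

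The 100 genes summed to 5491 CPM in control 4, or 0.549% of its gene counts. The sums were 186, 195, 179 and 165 CPM in control 1, control 2, control 3 and control 5. In race 1 to race 5 they were 174, 221, 184, 208 and 119 CPM. Thus control 4 stood 24.9 times above the highest of the others, race 2, while the remaining rested birds and the race birds overlapped, at 181 ± 12.7 (SD, n = 4) and 181 ± 39.4 CPM (SD, n = 5). CAMK2A alone made up 53.5 CPM of the mean in each of these groups. Per gene, control 4 held between 5.00 and 974 CPM (median 25), from 95 to 18513 counts. The ratio to the next library ran from 8.23 to 65.1 (median 17.6). With the same 2 thresholds, control 1 gave 2 genes, control 2 and race 4 gave 1 each, and the other 6 libraries gave 0.

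**Figure D1:**
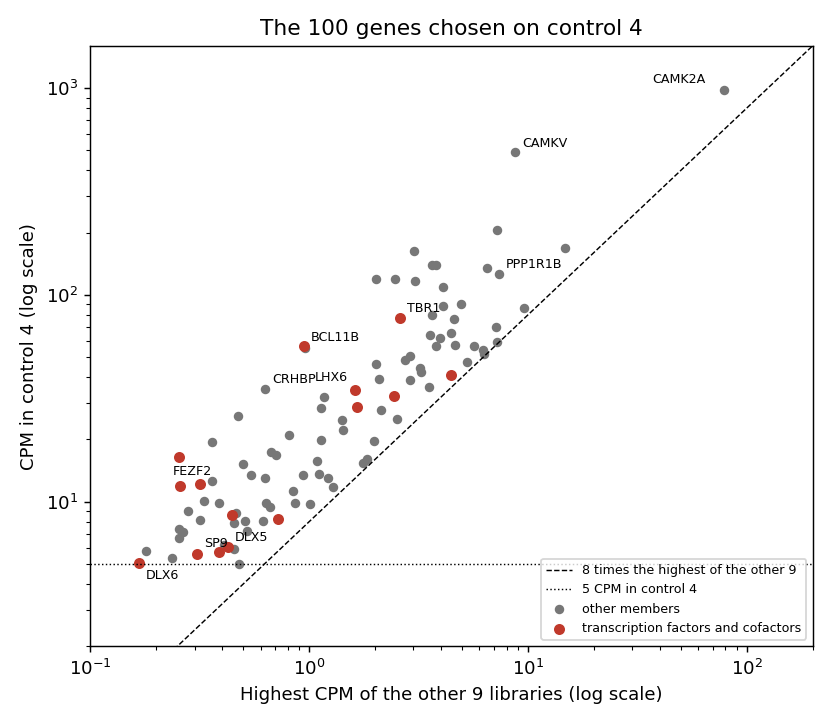
Each point is 1 of the 100 genes, with its highest CPM among the other 9 libraries on the horizontal axis and its CPM in control 4 on the vertical axis, both on log scales. The dashed and dotted lines are the thresholds of 8 times and 5 CPM that chose the genes. Transcription factors and cofactors (red) lie between 5.05 and 77.5 CPM in control 4.

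Genes just inside the lower CPM threshold were LOC135579886, DLX6 and LOC110357010, at 5.00, 5.05 and 5.32 CPM. Just outside it were EMX2, a pallial transcription factor, at 4.95 CPM, LOC110359630 at 4.84 CPM and RXFP3, a relaxin family peptide receptor, at 4.32 CPM. At the ratio threshold, ZDHHC22, LOC110362038 and NEURL1B stood inside with 8.23, 8.28 and 8.68 times the next library. ZNF831, LOC110363863 and DIRAS3 stood outside with 7.77, 7.75 and 7.59 times. The thresholds thus cut through a continuous range.

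Transcription factors come first, since they tell brain divisions apart. The set held 15 transcription factors and cofactors, between 9.20 and 65.1 times the next library. TBR1, a T-box factor of pallial projection neurons, stood at 0.300, 0.609, 0.973, 77.5 and 1.31 CPM in control 1 to control 5. It stood at 0.478, 0.962, 0.771, 2.59 and 0.668 CPM in race 1 to race 5. Control 4 was 29.9 times above race 4, the next library (95% interval 22.8 to 39.9, exact, for counting error only). This interval takes no account of the choice of the gene and of the next library.

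LHX6, a LIM homeobox factor of GABA neurons born in the ventral subpallium, stood at 1.11, 0.609, 0.768, 34.6 and 1.17 CPM in the control libraries. In race 1 to race 5 it stood at 0.319, 1.62, 1.08, 0.801 and 0.390 CPM. For TBR1 and LHX6 the values of the other control libraries overlapped those of the race libraries. TBR1, of the pallial list, and LHX6, of the subpallial list, were thus high in the same library, which the choice of the genes makes so. The other genes of these lists, given further on, were mixed. Some stood above all other libraries, and some lay within or below their range.

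Of the pallial list, FEZF2, a zinc finger factor that in mice specifies subcerebral projection neurons, stood at 11.9 CPM in control 4, from 227 counts. It had 0 counts in control 1, control 3, control 5 and race 1, and its highest value elsewhere was 0.257 CPM in race 3. BCL11B, which is in the subpallial and striatal list, is a zinc finger factor known from mouse corticospinal and striatal neurons. It stood at 56.4 CPM against 0.554 to 0.948 CPM in the other control and 0.111 to 0.911 CPM in the race libraries. For both the 9 other libraries formed 1 low group in which rested and flown birds overlapped.

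From the subpallial list came further homeobox and zinc finger factors. The linked homeobox genes DLX5 and DLX6, which drive GABA neuron fate, stood at 6.05 and 5.05 CPM in control 4, from 115 and 96 counts. Elsewhere DLX5 stood at 0.0428 to 0.425 CPM and DLX6 at 0 to 0.166 CPM. The next library for DLX6, control 2, had 3 counts, so its ratio of 30.4 has an interval of 10.1 to 150. SP9, a zinc finger factor of striatal and interneuron precursors, stood at 5.58 CPM and at most 0.308 CPM elsewhere. SIX3, a factor of the anterior neural plate and of striatal neurons, stood at 8.63 CPM and at most 0.443 CPM elsewhere. The 4 remaining factors of this paragraph are in none of the lists. The orphan nuclear receptor NR2E1, which keeps forebrain stem cells, stood at 12.2 CPM and at most 0.319 CPM elsewhere. LMO1, a LIM domain cofactor, stood at 41.1 CPM but also at 2.35 to 4.46 CPM elsewhere. The HMG box genes TOX and TOX2 stood at 8.26 and 5.74 CPM, 11.5 and 14.8 times the next library.

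**Figure D2:**
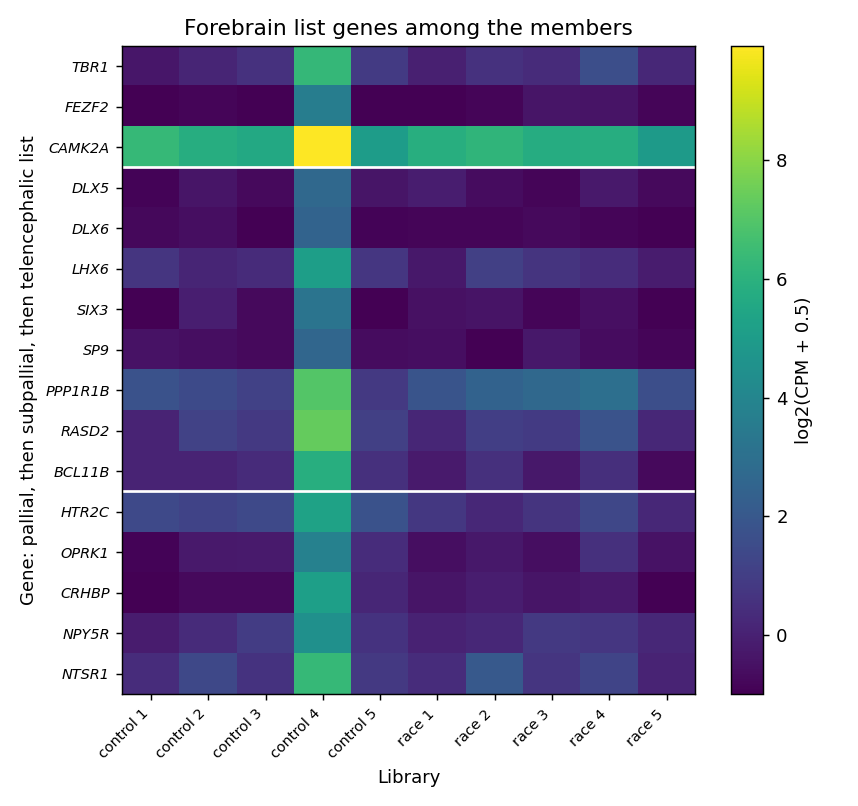
Colour gives log2(CPM + 0.5) of 16 of the 20 genes of the set that belong to the pallial (top), subpallial (middle) and telencephalic (bottom) lists, with the 10 libraries as columns. The control 4 column is brighter in every row, with TBR1 at 77.5 CPM and LHX6 at 34.6 CPM. In each of the other 9 libraries CAMK2A is read at 30.4 CPM or more and PPP1R1B at 1.26 CPM or more. TBR1 and LHX6 also have reads in all 9, at 0.300 to 2.59 and 0.319 to 1.62 CPM.

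Genes of intracellular signalling made up 18 of the 100. CAMK2A, the alpha subunit of the calcium and calmodulin dependent kinase abundant at forebrain synapses, stood at 79.0, 54.9, 48.0, 974 and 32.2 CPM in control 1 to control 5. In race 1 to race 5 it stood at 57.6, 70.1, 54.4, 55.2 and 30.4 CPM. It was thus read in every library, and control 4 was 12.3 times above control 1. CAMKV, a kinase-like vesicle protein, stood at 489 CPM against 1.0 to 8.71 CPM elsewhere, or 56.2 times race 2. AKAP5, which anchors protein kinase A at the postsynaptic membrane, stood at 88.0 CPM against 1.34 to 4.09 CPM. PTK2B, a calcium-activated tyrosine kinase, stood at 140 CPM against 0.613 to 3.63 CPM. PDE1A, a calmodulin-dependent phosphodiesterase, stood at 119 CPM against 0.0857 to 2.48 CPM. LRRK1, a kinase, and RASGRF2, a RAS exchange factor, were nearer the threshold, at 8.96 and 9.84 times the next library. The group as a whole spanned 8.68 to 56.2 times.

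Striatal signalling genes were part of this group. PPP1R1B encodes DARPP-32, the dopamine-regulated phosphatase inhibitor of striatal projection neurons. It stood at 2.83, 2.27, 1.69, 127 and 1.26 CPM in control and 3.08, 4.86, 5.96, 7.35 and 2.62 CPM in race libraries. RASD2, a small GTPase enriched in the striatum of mammals, stood at 163 CPM against 0.557 to 3.01 CPM elsewhere. In both genes control 4 was above every other library, and for PPP1R1B 4 of the 5 race libraries were also above the 4 remaining control libraries. Race 5 was below control 1, so the groups overlapped. The gene was not called without control 4 (adjusted p = 0.319 by edgeR's quasi-likelihood test), and with groups set by the sample titles its direction turned.

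Other named genes among the 15 of highest CPM in control 4 were STUM, RGS12, RASSF5, TMEM121B, GDA, LOC110361677, LZTS1 and FAM163B. RGS12, a regulator of G protein signalling, stood at 169 CPM and at 2.40 to 14.8 CPM elsewhere. GDA, guanine deaminase, is Z-linked and stood at 120 CPM and at 0.214 to 2.03 CPM elsewhere. STUM stood at 206 CPM and RASSF5, a RAP1 effector, at 140 CPM, with at most 7.24 and 3.80 CPM elsewhere. TMEM121B, the long noncoding RNA LOC110361677, LZTS1 and FAM163B stood at 135, 116, 109 and 90.6 CPM, with at most 6.48, 3.06, 4.10 and 4.93 CPM elsewhere. CPM is not divided by transcript length, so these levels do not order the genes by abundance.

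The 8 genes for peptides, secreted proteins and a binding protein stood 12.9 to 55.6 times above the next library. CRH, the corticotropin-releasing hormone, stood at 16.8 CPM in control 4 and at 0 to 0.707 CPM elsewhere. Its binding protein CRHBP stood at 35.2 CPM and at 0 to 0.632 CPM elsewhere, and its receptor CRHR2 at 46.3 CPM and 0.691 to 2.03 CPM elsewhere. VIP, the vasoactive intestinal peptide of interneurons, stood at 11.3 CPM and its receptor VIPR2 at 11.8 CPM, with at most 0.848 and 1.28 CPM elsewhere. In all 5 genes control 4 was alone, and the second library was control 3, control 5 or race 4.

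A total of 11 G protein-coupled receptors stood between 9.21 and 57.3 times the next library. Among them were NTSR1, the neurotensin receptor, at 79.8 CPM, BRS3, a bombesin-like orphan receptor, at 55.1 CPM, and NPY5R, a neuropeptide Y receptor, at 22.2 CPM. Their highest values elsewhere were 3.65, 0.962 and 1.43 CPM. OPRK1, the kappa opioid receptor, stood at 13.5 CPM and at most 0.942 CPM elsewhere, in race 4. The serotonin receptors HTR1B, HTR2C and HTR1F stood at 57.2, 38.9 and 9.90 CPM, with at most 4.65, 2.89 and 0.386 CPM elsewhere. CHRM5, a muscarinic receptor, stood at 10.1 CPM and at most 0.332 CPM elsewhere.

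A further 9 genes encode transporters, channels, membrane receptors and vesicle proteins. SLC30A3, the zinc transporter of glutamate vesicles, stood at 13.0 CPM against 0.0514 to 0.632 CPM elsewhere. SV2C, a synaptic vesicle protein abundant in the basal ganglia of mammals, stood at 42.2 CPM against 0.171 to 3.25 CPM. TRPC4, a cation channel, stood at 8.79 CPM against 0.0428 to 0.463 CPM. This group spanned 9.93 to 25.99 times the next library and also held SYNDIG1L, RTN4RL2, SLC24A4, ROBO3, CNGA3 and OTOF. The 3 enzymes were GDA, ZDHHC22, a palmitoyltransferase, and ENTPD3, an ectonucleotidase. A further 17 named genes without a role given here stood 8.74 to 55.4 times above the next library. Of these TMEM272 and TMEM61 stood at 26.1 and 19.4 CPM, with at most 0.471 and 0.358 CPM elsewhere. Of the 100 genes, 19 carry only a LOC name and 9 are long noncoding RNAs, and none of these is given a role here.

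The set was spread over the genome. It covered 23 chromosomes, led by chromosomes 2, 1 and 3 with 17, 14 and 12 genes, where these chromosomes hold 9.20%, 13.0% and 7.46% of the genes in the tables. Protein-coding members had a median gene span of 23317 bp, introns included, against 14684 bp over all protein-coding genes. DLX6 and DLX5 lie beside each other with 1 uncharacterised gene, LOC135578442, between them. LOC110357010 is the neighbour of CCK, and LOC135578238 of SEMA3E, both genes that met the thresholds and were set aside. The strand setting of the counting is not given, so reads of a gene and of a partner on the opposite strand cannot be told apart.

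The forebrain lists were then read in full, beyond the genes the rule took. Of 30 pallial genes listed 27 were in the tables, and 11 of these reached 1 CPM and 2 times the highest of the other libraries in control 4, where 2.79% of all genes did. Of 43 subpallial and striatal genes 17 did so, and of 21 telencephalic genes 10. The rule used this same contrast, and nothing is read from these shares. The list level, the mean of log2(CPM + 0.5), was higher in control 4 than the median of the other 9 by 1.57, 1.6 and 1.86 for the 3 lists. The corresponding medians over single genes were 0.84, 0.80 and 1.35, and the median over all 13247 genes with a median of at least 1 CPM was -0.03. These levels and medians include the 4, 10 and 6 chosen genes of the 3 lists, so they are no further support and nothing is read from them either.

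Pallial genes outside the set included MEF2C, an activity-regulated factor, at 145 CPM against 6.47 to 21.1 CPM elsewhere. LMO3, a LIM domain cofactor, stood at 90.4 CPM against 5.01 to 14.4 CPM. NEUROD6, a factor of pallial projection neurons, stood at 107 CPM against 16.8 to 36.5 CPM, and RORB, of sensory input areas, at 14.1 CPM against 0.471 to 2.25 CPM. EMX2 and LHX2, both patterning factors of the pallium, stood at 4.95 and 3.90 CPM against at most 0.388 and 0.166 CPM. CUX2 went the other way, at 42.6 CPM against 63.9 to 112 CPM, and ZBTB18, BHLHE22 and EOMES lay within the range of the other libraries. Many listed genes were thus read in every cerebellum library, which limits the list as a forebrain measure.

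Of the subpallial list, factors of the ventral subpallium were read in control 4 below the threshold of 5 CPM. LHX8 and NKX2-1 stood at 3.63 and 2.89 CPM, ISL1, of striatal and cholinergic neurons, at 2.63 CPM, and CHAT, the acetylcholine-synthesizing enzyme, at 2.16 CPM. Each had a median of at most 0.0471 CPM in the other 9. DLX2 stood at 4.21 CPM against at most 0.506 CPM, while DLX1 was read in all libraries, at 10.0 CPM against 2.71 to 8.57 CPM. FOXP1 stood at 44.0 CPM against 6.55 to 16.6 CPM. Several genes of striatal projection neurons lay within the range of the other libraries. DRD1, the D1 dopamine receptor, stood at 68.4 CPM within 23.6 to 85.4 CPM, and ADORA2A, an adenosine receptor, at 7.90 CPM within 5.23 to 10.7 CPM. DRD2, PDE10A and RGS9 were also within that range, and DRD3 lay below it, at 3.0 CPM against 3.75 to 9.60 CPM.

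**Figure D3:**
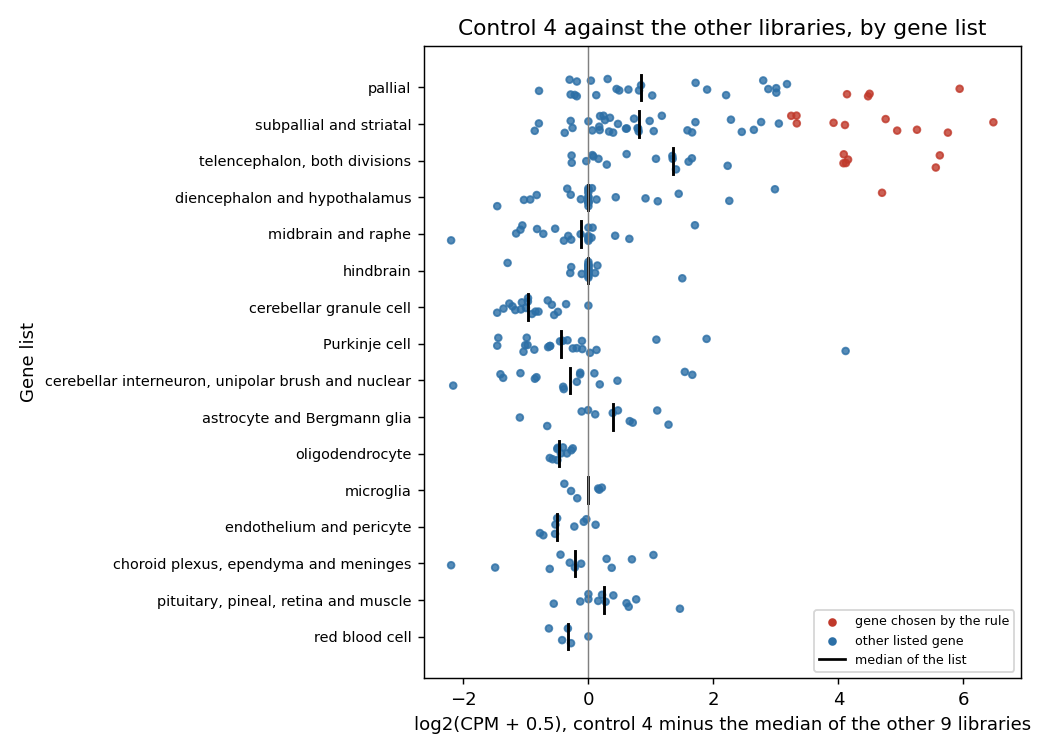
Each point is 1 gene of a list, placed by log2(CPM + 0.5) in control 4 minus the median of the other 9 libraries, with a black bar at the median of the list. Red points are genes the rule chose, blue points other listed genes. The 3 telencephalic lists have medians of 0.84, 0.80 and 1.35, and the granule cell list one of -0.97.

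Lists of the remaining brain regions gave other values. In the diencephalic and hypothalamic list 3 of 26 genes reached 2 times the highest other library, namely CRH, LHX9, a LIM homeobox factor, and NTNG1, a netrin relative, which stood at 27.7 CPM against 1.41 to 5.58 CPM. The hypothalamic genes OTP, SIM1, POMC and AGRP had 0 counts in control 4, which allows up to 0.158 CPM. In the midbrain and raphe list 1 of 21 did so, TFAP2D at 2.89 CPM, and in the hindbrain list 1 of 20, MAFA at 1.79 CPM. The midbrain and roof factor OTX2 had 0 counts in control 4 and 0.319 to 2.44 CPM elsewhere. As a whole, the diencephalic and hypothalamic list stood higher in control 4, at a level of 0.71 against 0.30 to 0.61 elsewhere. Its median difference over single genes was 0. The midbrain and raphe list level was 0.155 in control 4 against 0.171 to 0.612 elsewhere. The hindbrain list level differed by -0.04 from the median of the others, and most HOX genes were at or near 0 in all 10 libraries.

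Granule cell genes were present in control 4, most of them at lower levels. Of 19 granule cell genes 13 lay below all other libraries, and 0 lay above. Below lay 5.79% of all 22547 genes, those under 1 CPM included. The list level was lower by 0.90, at 5.94 against 6.52 to 6.99. ZIC1, a zinc finger factor of granule cells, stood at 313, 340, 229, 121 and 272 CPM in the control and 296, 371, 242, 247 and 262 CPM in the race libraries, so that control 4 held 44.4% of the median of the others. EN2, the engrailed factor of midbrain and cerebellum, stood at 26.2 CPM against 36.9 to 63.1 CPM, or 49.5%. CBLN1, a synapse organizer secreted by granule cells, stood at 648 CPM against 727 to 1486 CPM, or 55.6%. PAX6 stood at 49.5 CPM against 50.4 to 96.3 CPM. GABRA6, the granule cell GABA receptor subunit, stood at 54.2 CPM, within 19.1 to 109 CPM, and control 1 and control 2 were below it. Fewer cells of a type, less RNA per cell and a larger share of other RNA cannot be told apart in such bulk libraries.

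Among the strongest differences in the granule cell list were those of UNCX and BARHL2, at -1.36 and -1.26 on the log2(CPM + 0.5) scale. The smallest were those of CADPS2, ZIC5 and ETV1, at -0.36, -0.49 and -0.55. TLX3, with 0 counts in control 4 and a median of 0 elsewhere, did not differ, and the other 18 granule cell genes all stood below the median of the others.

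Purkinje cell genes were mixed. Of 22 genes 9 lay below and 3 above all other libraries, and the list level was lower by 0.23. Over all 22547 genes, those under 1 CPM included, 5.79% lay below and 10.8% above. Among genes read at 1 CPM or more these shares are higher. CALB1, calbindin, stood at 237 CPM within 216 to 405 CPM, and ITPR1, the inositol trisphosphate receptor, at 512 CPM within 179 to 765 CPM. LHX5, SKOR1 and SKOR2, transcriptional regulators, were lowest at -1.46, -1.44 and -1.04. ATP2A3, a calcium pump, stood at 194 CPM against 4.73 to 29.0 CPM, 6.71 times the next library and thus close to the chosen set. PCP4 and KITLG were also above, at 120 CPM against 21.4 to 70.9 CPM and 6.16 CPM against 1.03 to 3.58 CPM.

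In the list of cerebellar interneurons, unipolar brush cells and nuclei, 7 of 16 genes lay below and 2 above all other libraries. Of all 22547 genes, those under 1 CPM included, 5.79% lay below and 10.8% above. The list level was 4.19 in control 4 against 4.35 to 4.91 elsewhere, or -0.27 from their median. With medians over list genes this difference reversed to 0.42. TFAP2A, PAX2 and TFAP2B, factors of cerebellar GABA precursors, were lowest, at -2.16, -1.41 and -1.36. TFAP2A, at 1.58 CPM against 5.12 to 17.5 CPM, was at most 0.5 times the lowest other library, as were 0.071% of all genes. KIT, a receptor tyrosine kinase of molecular layer interneurons, stood above the others at 18.5 CPM against 2.44 to 9.30 CPM. SORCS3 stood at 86.3 CPM against 10.6 to 51.3 CPM.

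**Figure D4:**
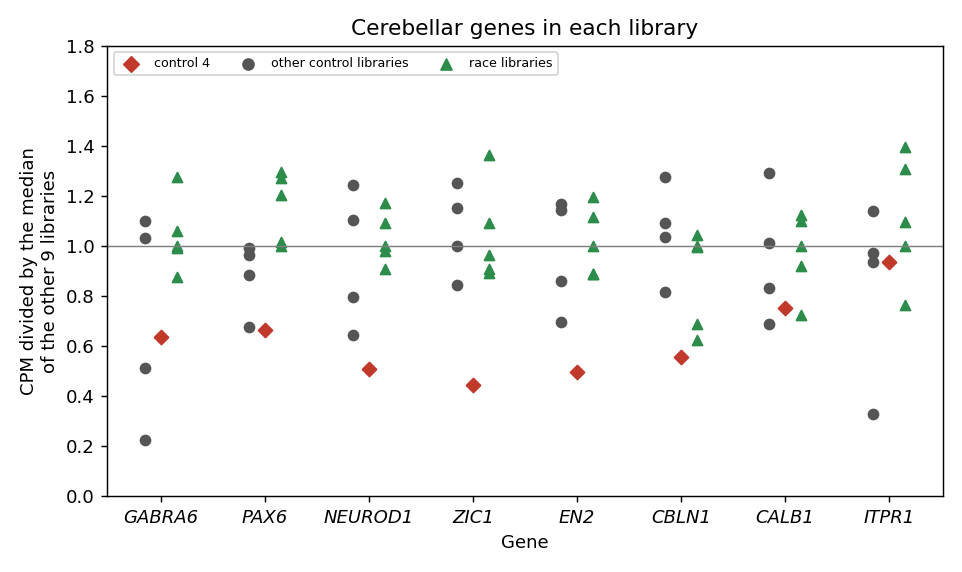
CPM of 8 cerebellar genes in each library, divided by the median of the 9 libraries other than control 4, with control 4 as red diamonds, the other control libraries as grey circles and the race libraries as green triangles. Control 4 lies below all other libraries for PAX6, NEUROD1, ZIC1, EN2 and CBLN1, and within their range for GABRA6, CALB1 and ITPR1.

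Lists of other cells were compared for the same library. The oligodendrocyte list level was 6.05 in control 4 within 6.0 to 7.06 elsewhere, with 2 of 10 genes below all others, SOX10 and OLIG2. Summed, these genes held 2639 CPM in control 4 and 1960 to 6032 CPM elsewhere. The astrocyte and Bergmann glia list stood at 6.74 within 6.13 to 6.95, the microglia list at 1.98 within 0.94 to 2.37, and the endothelial list at 3.79 within 3.55 to 4.61. The list of choroid plexus, ependyma and meninges stood at 2.01 within 1.51 to 2.61, and that of red blood cells at 0.83 within 0.49 to 2.11. The list of pituitary, pineal, retina and muscle stood at 0.09, just above the 0.07 of race 3, with CGA, PRL and PITX1 at 0 counts. The part of these cells in the height of the 100 genes was not tested.

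Low reads of the set in the other 9 libraries were described next, since the rule fixes only their upper bound. Race 4 was the highest of the 9 for 19 of the 100 genes, control 5 and race 2 for 16 each and race 5 for 2. Per gene, the other libraries held a median of 1.23% (race 5) to 3.10% (control 5) of the level in control 4. Between 23 and 46 of the 100 genes reached 1 CPM in these libraries. TBR1, PPP1R1B, RASD2, OPRK1, CRH and VIP all had their highest value outside control 4 in race 4, at 2.59, 7.35, 3.01, 0.942, 0.707 and 0.848 CPM. LHX6, BRS3 and CAMKV had theirs in race 2. Other forebrain list genes had theirs elsewhere, BCL11B and CRHBP in control 5, SIX3 and DLX6 in control 2, FEZF2 in race 3 and DLX5 in race 1.

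Flown and rested birds were compared without control 4, in 4 control and 5 race libraries. A total of 57 of the 100 genes passed the filter on low counts, applied without control 4, and 43 did not. After Benjamini-Hochberg adjustment over all 14298 genes, edgeR's quasi-likelihood test called 0 of the 57, where it called 0.00699% of all genes. That share is 1 gene, the nucleotide sugar transporter SLC35D2, which is not in the set. Limma voom and DESeq2 also called 0 of the 57, where they called 1 and 408 of all 14298 genes. With control 3 and control 5 left out as well, a fit chosen after seeing the data, only control 1 and control 2 stayed as controls. There edgeR called 3397 of 14697 genes, and 2 of the 61 genes of the set tested. These were RTN4RL2 (log2 fold change -1.78, adjusted p = 0.0392 by edgeR) and LOC135578679 (4.07, adjusted p = 0.0324 by edgeR). LOC135578679 had 1 and 0 counts in control 1 and control 2, under the floor of 3 counts. It had 6 to 20 counts in the race libraries and 13 in control 3, and was not among the 57. In the fit of 4 control and 5 race libraries, 1 gene of the set was higher in race birds at an unadjusted p under 0.05. Over all genes this share was 6.5%. Lower in race birds were 4 genes of the set, where 7.71% of all genes were. The median log2 fold change over the 57 was -0.20, with 21 positive and 36 negative, against 0.01 over all genes tested. No gene of the 57 separated the race from the control libraries without overlap, where 5.26% of all genes did so upward and 1.93% downward.

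HTR2C, the serotonin 2C receptor, had the smallest p. Without control 4 it stood at 2.18, 1.83, 2.15 and 2.89 CPM in control and at 1.22, 0.658, 1.08, 2.03 and 0.668 CPM in race libraries. The values of race 4 and control 2 overlapped. Its log2 fold change was -1.12 ± 0.40 (SE), with an adjusted p of 0.299 by edgeR's quasi-likelihood test. On the lower side RTN4RL2, a Nogo receptor relative, HTR1B, SV2C and CRTAC1 followed with -1.26 ± 0.50, -0.87 ± 0.36, -1.34 ± 0.58 and -1.26 ± 0.62. Their adjusted p values were 0.319, 0.327, 0.339 and 0.364 by the same edgeR test. On the higher side was PPP1R1B, with 4.77 ± 1.97 CPM in race birds (SD, n = 5) and 2.01 ± 0.682 CPM in rested birds (SD, n = 4). Its log2 fold change was 1.08 ± 0.43, with an adjusted p of 0.319 by the edgeR test. With groups set by the sample titles the direction turned for PPP1R1B (-0.27), HTR2C (0.36), HTR1B (0.25), SV2C (0.91) and LOC102097569 (-0.44). After PPP1R1B, the genes of smallest p on the higher side were LOC102089450, RGS12, LOC102097569 and DYRK4, at 1.31 ± 0.61, 0.65 ± 0.33, 1.42 ± 0.79 and 0.68 ± 0.44. TBR1 and LHX6 stood at 0.39 ± 0.57 and -0.27 ± 0.51, each difference within 1 SE of 0.

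**Figure D5:**
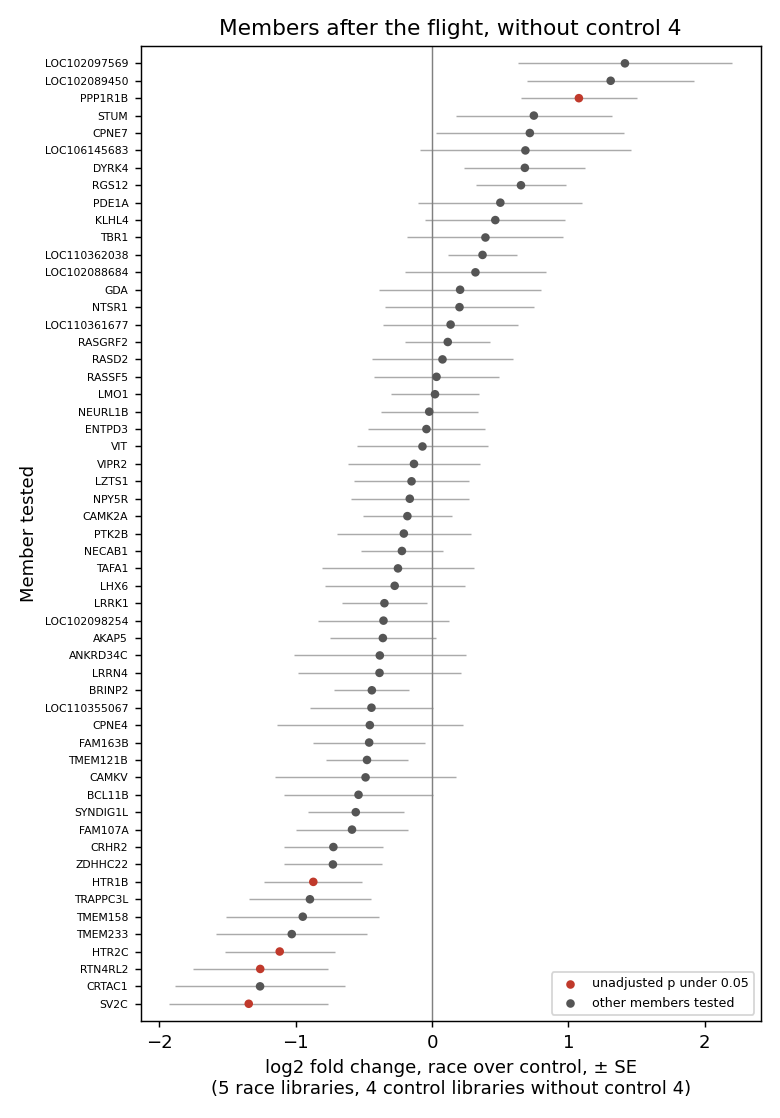
Points are log2 fold changes of race over control, with bars of 1 SE, for 55 of the 57 genes tested in 5 race and 4 control libraries without control 4. Red points mark the 5 genes with an unadjusted p under 0.05, and no gene passed after adjustment.

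With control 4 kept in, 56 of the 100 genes passed the filter, and their median log2 fold change was -2.93, with 56 of 56 lower in race birds. Here edgeR called 0 of 14172 genes after adjustment (0%), and DESeq2 called 261. At an unadjusted p under 0.05 by edgeR the set had 0 genes higher and 45 lower in race birds. Over all genes 862 (6.08%) and 987 (6.96%) were. The choice of the genes on a control library gives this direction. Limma voom had 1 gene of the set lower at that threshold and DESeq2 had 2. None of the 56 separated the groups without overlap, where 3.46% of all genes did so upward and 0.967% downward. This contrast holds the library that chose the genes, and nothing is read from it. TBR1 and LHX6 had average values of 0.798 ± 0.438 and 0.916 ± 0.272 CPM in the 4 other control libraries (SD, n = 4), and of 1.09 ± 0.855 and 0.842 ± 0.534 CPM in the race libraries (SD, n = 5). With groups set by the sample titles, which place control 4 among the race birds, the median was 2.76. The log2 fold change of TBR1 was negative with control 4 and positive without it, and that of LHX6 was negative in both. The signs with control 4 follow from the choice of the genes.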

How the data were processed

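The authors deposited raw counts of reads per gene, without normalization, as 1 table for each library. Their tools, per the submitters' processing notes, included HTSeq 0.13.5, STAR 2.7.10a, fastp 0.23.2, MultiQC 1.14 and FastQC 0.11.5. Reads were paired and of 100 bp, from RNA with integrity numbers of 9.6 to 10.0, per the labels. The sources used here do not give the build, annotation, strand setting or library kit, so no coordinates are printed. Rows that name no gene held 18.1% to 23.4% of counts, reads aligned to several places included, and stayed out of all totals.

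CPM were computed over the sum of gene rows. The RefSeq table of assembly bColLiv1.pat.W.v2 matched 22268 of 22547 gene names and 100 of the 100 chosen. Race was compared with control by a two-sided test in edgeR 4.0.16 under R 4.3.3 (glmQLFit with robust estimation, TMM scaling, filterByExpr with a minimum count of 10). P-values were adjusted by Benjamini-Hochberg across the genes tested, at 0.05. Standard errors came from the fold change and its F statistic. P-values measure the spread between libraries, taken as 1 bird each. The scripts were tested on simulated counts. For the fit without control 4, 29.3% of 2-fold and 85.9% of 4-fold changes were recovered over 14141 genes, with 9 false calls among 123. The changed genes were drawn at random from all genes past the filter, so recovery within the set was not measured. The simulated libraries held no differences like those in W-linked genes. A gene not called may thus still differ between the groups. Intervals of single libraries are exact at 95% and, like the floor of 3 counts, cover counting error only. Those of ratios take no account of the choice of the genes and of the next library. Replicates were numbered in accession order.

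The chosen genes, the 16 lists and the tests were set with earlier results of these data known. Named are the list genes in the set, the 15 of highest CPM in control 4, those nearest the thresholds, up to 5 per direction of smallest p without control 4, and the extremes of the cerebellar lists. The roles, and the other genes named, were picked once values were known. As alternatives, other CPM denominators and thresholds, RLE scaling, no filter, limma voom (limma 3.58.1), DESeq2 1.42.0, groups by sample title, other pseudocounts and leaving out each library were run. A fit without control 3, control 4 and control 5 was added after seeing the data. Some genes are not reported here by name, though they count in all totals.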

Additional observations from a re-analysis of the deposited data

Results flagged for a closer look

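Each group of 5 libraries was searched for a library far from its fellows, by the gap to the nearest value over the whole range (Dixon's criterion). Chance picks out about 1 in 20 groups, and 34 group values of summed levels and lists were examined. Control 4 stood apart in the summed CPM of the 100 genes (0.994), at 5491 CPM against 165 to 195 in the other control libraries, and in 100 of the 100 genes singly, which the choice of the genes makes so. The pallial list (0.801), the subpallial and striatal list (0.789) and the list of both telencephalic divisions (0.852) also set it apart, but they hold 4, 10 and 6 of the chosen genes and are no further support. Control 2 stood apart in the list of cerebellar interneurons, unipolar brush cells and nuclei (0.734), at 4.91 against 4.19 to 4.38. Race 1 stood apart in microglia genes (0.713), at 2.37 against 1.92 to 2.05. Control 3 stood apart in genes of choroid plexus, ependyma and meninges (0.715), at 2.38 against 1.96 to 2.08.

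Among race libraries 9 of the 100 genes had a library set apart, and in 5 of the 9 it was race 4. These 5 were TBR1, at 2.59 CPM against 0.478 to 0.962 in the other race libraries, VIP, at 0.848 against 0.152 to 0.213, TAFA1, OPRK1 and NECAB1. The others were LOC135578238 and VIT in race 2, CPNE4 in race 1 and TOX2 in race 5. TOX2 was set apart on the low side, at 0.0557 CPM against 0.236 to 0.304, from 1 count, which is under the floor of 3 counts. Chance alone picks out about 5 of 100, and the genes are not independent.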

How the results depend on the processing

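With other CPM denominators 90 to 92 genes met the thresholds, 182 met a ratio of 4, 56 a ratio of 16, and leaving out any comparison library gave 100 to 104. Without control 4, the genes called over all genes numbered 1, and 0 to 37 with 1 library left out (37 without control 1, 0 without control 2 or race 3, 2 without race 2). They numbered 408 by DESeq2, 0 by sample title and 3397 of 14697 without control 3, control 4 and control 5. There 2 of the 61 genes of the set tested passed, RTN4RL2 (-1.78, adjusted p = 0.0392 by edgeR) and LOC135578679 (adjusted p = 0.0324 by edgeR). The second had at most 1 count in control 1 and control 2. With all 10 libraries the number called was 0, and 0 to 1 with 1 left out, 261 by DESeq2, of which 1, RTN4RL2, was in the set, 3 by title and 3397 without those 3. The median over the set without control 4 ran from -0.33 to -0.09 with 1 library left out, and by title HTR2C (0.36), HTR1B (0.25), SV2C (0.91), PPP1R1B (-0.27) and LOC102097569 (-0.44) reversed. By the grouping used, control 3, control 4 and control 5 were the libraries with more W-linked genes read, and no race library was among them. The cause of these shifts was not tested.

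List differences of control 4 moved with the pseudocount. With 0.1 they were 1.81, 2.16 and 2.20 for the pallial, subpallial and telencephalic lists, and with 2 they were 1.28, 1.08 and 1.43. With medians over list genes the pallial, telencephalic, granule and Purkinje lists gave 1.10, 2.77, -1.16 and -0.45, and the interneuron list reversed to 0.42. With 1 library left out they ran from 1.57 to 1.58, 1.59 to 1.61, 1.86 to 1.87, -0.90 to -0.89, -0.24 to -0.20 and -0.29 to -0.23 for the 6 lists. No paired analysis was possible because the labels give no replicate number that both groups share. Values near 3 counts, such as those of DLX6 and FEZF2 outside control 4, are limited by depth.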
